A study of Mus musculus with 16 samples.

Results

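The odorant receptor genes of mouse chromosomes 3 to 6 were taken as every probeset of the array that is assigned to one of these chromosomes and carries an Olfr symbol, with pseudogenes left out. There were 52 of them among the 1080 odorant receptor probesets, with 2 on chromosome 3, 23 on chromosome 4, 0 on chromosome 5 and 27 on chromosome 6. Only identity and location chose them, and 1 pseudogene probeset was passed over. All samples came from S100a5-tauGFP mice, in which green fluorescent protein (GFP) reports S100a5, a gene that olfactory sensory neurons switch on when they are active. The 24 mice were of both sexes and 7 to 12 weeks old, and each spent 40 h in a chamber with 3.1 L/min of clean air. After 26 h the mice of one arm received pulses of an odorant, 10 s long and 20 min apart, and those of the other arm received filtered air as vehicle. The dissociated olfactory mucosa of 3 mice made a pool, and sorting divided each pool by fluorescence. There were 4 groups with 4 arrays each, vehicle GFP+, vehicle GFP-, odorant GFP+ and odorant GFP-, and the controls carry the reporter too. Bourgeonal is the odorant in the sample labels and indole is the one in the series title, and it is therefore referred to only as the odorant. The strain and the reporter's copy number are not stated in the labels.

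Odorant receptors are G protein-coupled receptors of the cilia of olfactory sensory neurons, where they signal through the G protein alpha subunit Gnal, adenylyl cyclase and a cyclic nucleotide-gated channel. Each mature neuron transcribes 1 allele of 1 receptor gene, so the level of a receptor transcript in a cell fraction follows the neurons that chose it and the transcript each of them holds. In a bulk sample, fewer neurons of a type and less RNA per neuron cannot be told apart. Receptors of these chromosomes belong to class II, the larger of the mammalian classes. They fall into families by sequence, for which the MOR names of the RefSeq gene table were used. MOR261 held 11 of the 52, MOR262 held 10, MOR259 held 8, MOR257 held 7, MOR258 held 5, MOR119 held 4 and MOR120 held 3. The families MOR122, MOR217 and MOR253 were represented by 1 receptor each, and Olfr455 had no family name in that table. The best known are the mOR37 receptors of chromosome 4 (here Olfr155, Olfr156, Olfr157 and Olfr159 of MOR262), whose neurons lie in a patch of the nasal turbinates and respond to long-chain aldehydes.

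The genes lie in 10 clusters, if neighbours are joined when at most 5 other protein-coding genes stand between them in the RefSeq order. On chromosome 4 these are the runs Olfr70 to Olfr155 (6 receptors, with mOR37), Olfr273 to Olfr270 (3), Olfr267 alone, and Olfr62 to Olfr1328 (13, MOR258 and MOR259). On chromosome 6 they are Olfr461 with Olfr460, Olfr459 alone, Olfr458 to Olfr47 (19, mainly MOR257 and MOR261) and Olfr211 to Olfr215 (5). Olfr1402 and Olfr266 stand alone on chromosome 3.

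The sequences below are the first 50 coding bases of receptors whose close relatives behaved alike or differently in the comparisons that follow. They were read from the RefSeq gene start windows of build GRCm38.p6, in which 45 of the 52 receptors had an entry and 39 of those 45 began at ATG. These are the whole set of pairs that matched at 44 or more of 50 positions, 10 pairs in all, together with the MOR120 receptors, and they were chosen after their values had been seen. Capitals mark bases that are the same at that position in every sequence of the set. The first set is MOR120 on chromosome 6, with Olfr461 at chr6:40544928-40544977 (minus strand), Olfr460 at chr6:40571388-40571437 (plus) and Olfr459 at chr6:41772248-41772297 (minus), which share 33 of 50 bases.
Olfr461: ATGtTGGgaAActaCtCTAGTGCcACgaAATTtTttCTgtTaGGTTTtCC
Olfr460: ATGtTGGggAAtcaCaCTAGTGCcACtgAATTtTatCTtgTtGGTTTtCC
Olfr459: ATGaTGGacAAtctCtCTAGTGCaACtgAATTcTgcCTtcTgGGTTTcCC

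The MOR257 pair Olfr453 (chr6:42744039-42744088, plus) and Olfr452 (chr6:42790041-42790090, plus) shares 44 of 50 bases.
Olfr453: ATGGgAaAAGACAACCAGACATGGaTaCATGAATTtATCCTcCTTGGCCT
Olfr452: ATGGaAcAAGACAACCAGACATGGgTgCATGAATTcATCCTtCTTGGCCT

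A first MOR261 trio comprises Olfr444 (chr6:42955500-42955549), Olfr441 (chr6:43115744-43115793) and Olfr237 (chr6:43153307-43153356), all on the plus strand, and 46 of 50 bases are common to its members.
Olfr444: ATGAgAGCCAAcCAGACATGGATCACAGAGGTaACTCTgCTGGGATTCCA
Olfr441: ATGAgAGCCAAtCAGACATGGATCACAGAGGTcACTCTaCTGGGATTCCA
Olfr237: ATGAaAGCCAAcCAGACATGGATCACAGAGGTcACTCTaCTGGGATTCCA

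A second MOR261 trio comprises Olfr435 (chr6:43201646-43201695), Olfr434 (chr6:43216915-43216964) and Olfr47 (chr6:43235610-43235659), on the same strand, with 44 of 50 bases in common.
Olfr435: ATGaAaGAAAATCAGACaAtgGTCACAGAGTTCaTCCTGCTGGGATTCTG
Olfr434: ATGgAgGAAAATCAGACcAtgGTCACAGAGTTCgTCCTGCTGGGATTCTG
Olfr47: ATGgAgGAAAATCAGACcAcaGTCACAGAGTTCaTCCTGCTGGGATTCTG

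The MOR259 trio of chromosome 4 comprises Olfr1338 (chr4:118754487-118754536), Olfr1329 (chr4:118917416-118917465) and Olfr1328 (chr4:118934791-118934840), all on the minus strand, with 45 of 50 bases in common.
Olfr1338: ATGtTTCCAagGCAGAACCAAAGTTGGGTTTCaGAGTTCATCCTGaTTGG
Olfr1329: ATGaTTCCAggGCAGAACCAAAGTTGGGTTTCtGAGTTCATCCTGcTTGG
Olfr1328: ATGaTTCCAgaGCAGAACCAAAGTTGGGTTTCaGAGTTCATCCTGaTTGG

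Expression is given as the deposited log2 signal of a probeset, so that a difference of 1 is a doubling. Array medians over the 22206 gene probesets ran from 6.29 to 6.38 in GFP+ cells and from 6.64 to 6.76 in GFP- cells. Omp, which marks mature neurons of the epithelium, lay between 18.5 and 18.7 on all 16 arrays. S100a5, the gene behind the reporter, was higher in GFP+ than in GFP- cells by 0.93 (SE 0.16, adjusted p = 0.0024) with vehicle and by 1.14 (SE 0.20, adjusted p = 0.0025) with odorant, and Kirrel2, another activity-dependent gene of these neurons, by 1.60 (SE 0.17, adjusted p = 0.00010) with vehicle. Its difference of 1.06 with odorant did not pass (adjusted p = 0.16). The fractions also differed in other cells: the mean level of 7 immune markers was 5.57 to 6.65 on GFP+ and 10.95 to 12.86 on GFP- arrays, that of 10 immature neuron markers 10.31 to 10.63 and 12.31 to 12.94, and that of 6 microvillar cell markers 4.58 to 5.27 and 7.81 to 8.78. For 8 sustentacular cell markers the ranges were 7.78 to 9.24 and 9.55 to 11.06, and for 4 measured markers of globose basal and cycling cells 4.10 to 4.64 and 5.81 to 7.56, whereas 15 mature neuron markers averaged 16.24 to 16.37 and 15.97 to 16.21. With vehicle, 6 of 7 immune, 7 of 10 immature, 6 of 6 microvillar, 7 of 8 sustentacular and 4 of 4 basal markers were lower in GFP+ cells. With odorant these were 6 of 7, 6 of 10, 6 of 6, 3 of 8 and 4 of 4. The part of these cells in the receptor differences below was not tested.

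Detection was judged against the background level of each array, the 95th percentile of 23 control probesets that match no mouse sequence (6.57 to 6.87). On GFP+ arrays 32 to 38 of the 52 receptors exceeded it, and on GFP- arrays 39 to 43. Of the 52, 26 exceeded background on all 16 arrays. Another 8 exceeded it on all 8 GFP- arrays and on none of the 8 GFP+ arrays: Olfr266, Olfr157, Olfr270, Olfr461, Olfr460, Olfr459, Olfr452 and Olfr444. Olfr1340 showed the reverse, above background on every GFP+ and on no GFP- array. The same counts were not made over the other odorant receptors or over all gene probesets, so no share stands beside them. Olfr1402, Olfr159, Olfr1337, Olfr458 and Olfr456 exceeded background nowhere, so their values give no level. Fold changes against a group at background are given as lower bounds.

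**Figure D1:**
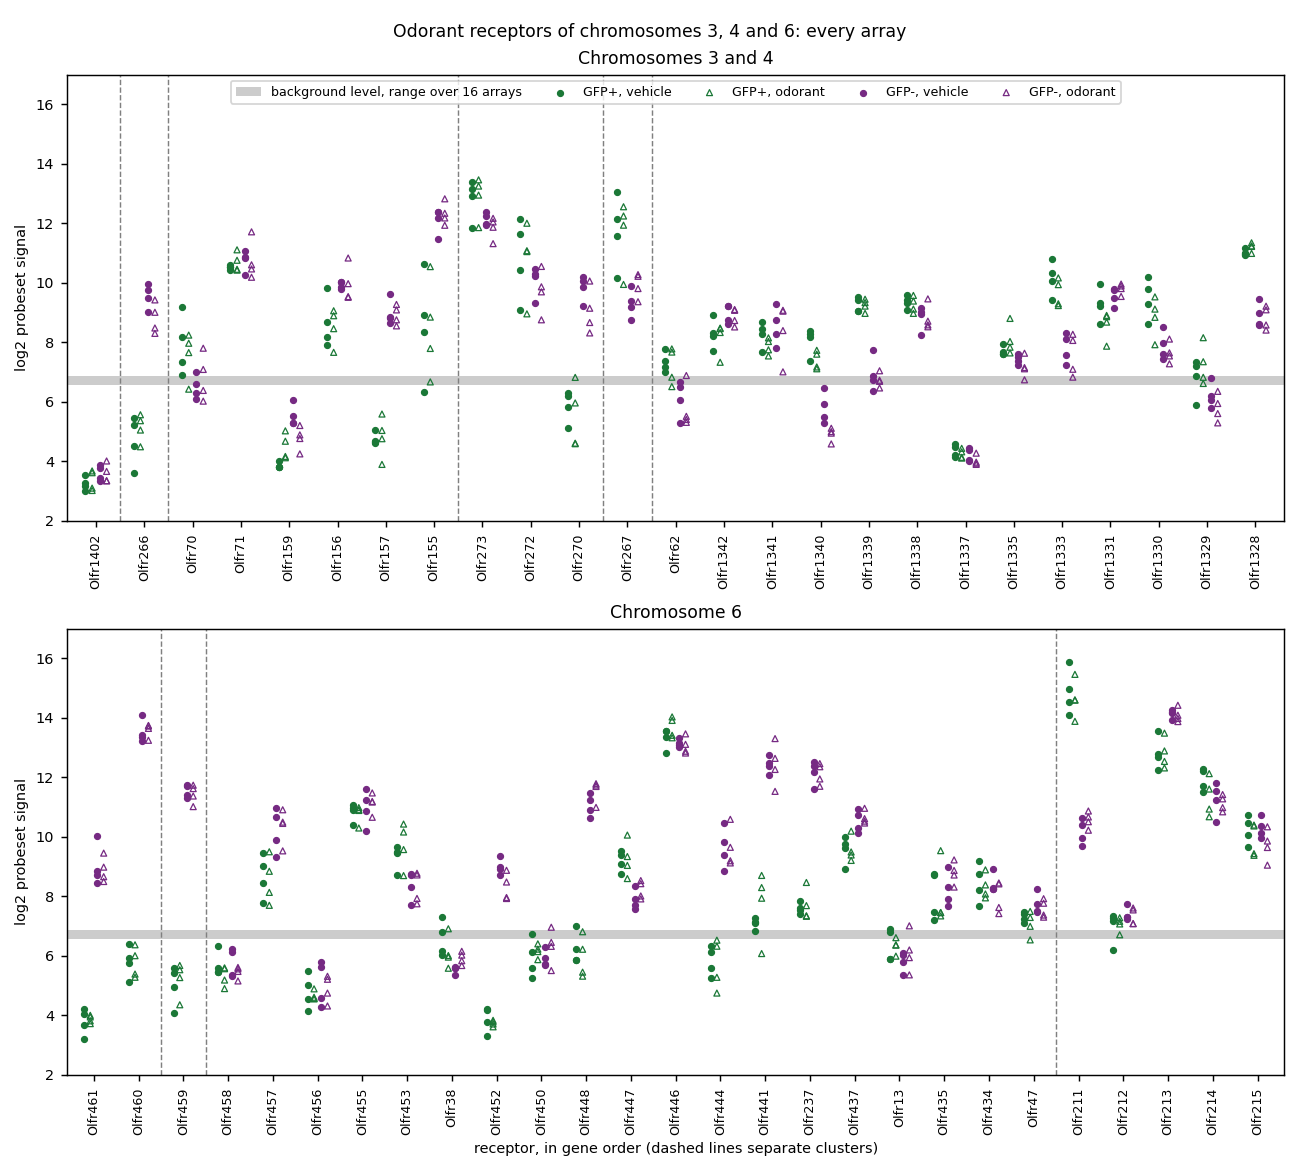
Log2 probeset signal of the 52 receptors in gene order (upper panel chromosomes 3 and 4, lower panel chromosome 6), with 1 point per array, filled circles for vehicle and open triangles for odorant, green for GFP+ and purple for GFP- cells, and the grey band for the background level over 16 arrays. The GFP- points of Olfr460 lie between 13.2 and 14.1 and its GFP+ points between 5.13 and 6.39, whereas for Olfr211 the GFP+ points, 13.9 to 15.9, lie above the GFP- points.

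The first comparison asked which receptors differ between GFP+ and GFP- cells of mice that breathed filtered air. Of the 52 receptors, 12 were higher in GFP+ cells, 17 were lower and 23 were not called (limma, adjusted p under 0.05 over all gene probesets). Among all 22206 gene probesets 7.76% were higher and 9.97% lower, and among the 1028 other odorant receptor probesets 367 were higher and 258 lower. The median difference was -0.16 over the 52 receptors, 0.31 over the other receptors and 0.082 over all gene probesets. In the mice given odorant, which are other animals, the counts were again 12 higher, 17 lower and 23 not called, where 3.57% of all probesets were higher and 7.84% lower, 356 of the other receptors were higher and 247 lower, and the medians were -0.19, 0.35 and 0.10. Subtracting each array's median, which moves the median of all gene probesets to 0.45 with vehicle and 0.42 with odorant, gave 20 higher and 16 lower with vehicle and 16 and 17 with odorant. It also turned the median of the 52 receptors to 0.20 with vehicle and 0.12 with odorant, still below that of all gene probesets, and without vehicle pool 3 the unscaled median was 0.014. The number called higher dropped to 6 without vehicle pool 1, and to 6 without odorant pool 1 or odorant pool 4.

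In MOR120 all 3 members were lower in GFP+ cells in both comparisons, and Olfr460 and Olfr459 had the largest log2 falls of the 52 receptors in each. Counts by family, here and below, were not tested against the shares of all gene probesets or of other receptors given above. Olfr460 read 14.08, 13.23, 13.36 and 13.41 in the GFP- cells of vehicle pools 1 to 4, and 6.39, 5.13, 5.76 and 5.92 in their GFP+ cells. With odorant its values were 13.65, 13.25, 13.73 and 13.75 in GFP- cells and 6.0, 6.37, 5.39 and 5.28 in GFP+ cells. Every GFP+ value lay below background, so the transcript was at least 117-fold lower with vehicle (log2 difference -7.72, SE 0.27, adjusted p = 7.6e-08) and at least 113-fold lower with odorant (-7.83, SE 0.25, adjusted p = 1.4e-08). Olfr459 fell from 11.76, 11.73, 11.30 and 11.42 to 5.58, 4.09, 4.95 and 5.43 with vehicle, a fall of at least 29.8-fold (adjusted p = 2.4e-07). In odorant mice it read 11.74, 11.62, 11.37 and 11.02 against 5.67, 5.53, 4.35 and 5.27, a fall of at least 25.5-fold (adjusted p = 1.3e-07). Olfr461, the neighbour of Olfr460, was 8.46 to 10.0 in GFP- and 3.21 to 4.23 in GFP+ cells with vehicle, and 8.50 to 9.45 and 3.72 to 4.00 with odorant, at least 5.14-fold and 4.38-fold lower. None of the 3 overlapped between fractions, though the share of all gene probesets without overlap was not counted. Olfr459 lies in a cluster of its own, apart from Olfr461 and Olfr460.

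MOR261 fills the far end of the large chromosome 6 cluster, and 5 of its 11 members were lower in GFP+ cells in both comparisons, 1 was higher in both and 5 were called in neither. In single comparisons, 9.97% of all gene probesets were lower and 7.76% higher with vehicle, and 7.84% and 3.57% with odorant. The first MOR261 trio printed above, nearly identical over the 50 bases compared, fell together. Olfr441 read 12.48, 12.76, 12.39 and 12.07 in vehicle GFP- cells against 7.14, 7.11, 7.27 and 6.82 in GFP+ cells, 40.4-fold lower (-5.34, SE 0.17, adjusted p = 6.3e-08). With odorant the same receptor was 12.27, 13.30, 12.64 and 11.53 against 8.30, 8.70, 7.94 and 6.08, 25.7-fold lower (-4.68, SE 0.53, adjusted p = 0.00011), and the GFP+ value of pool 4 was lower than those of the other pools. Olfr237, which differs from Olfr441 at 2 of the 50 bases, was 23.9-fold lower with vehicle (7.40 to 7.84 in GFP+ against 11.6 to 12.5 in GFP- cells, adjusted p = 2.3e-07). In odorant mice the fall of Olfr237 was 21.3-fold (7.33 to 8.47 against 11.7 to 12.5, adjusted p = 1.1e-06). Both kept a signal above background in most GFP+ arrays. Olfr444 went from 8.85 to 10.5 in GFP- cells down to 5.24 to 6.34 in GFP+ cells with vehicle, at least 7.87-fold, and at least 7.32-fold with odorant. The trio shares 94% to 96% of these bases pair by pair, and whether the probesets tell its transcripts apart was not tested.

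Olfr448 and Olfr447, neighbours in the same family, moved in opposite directions. Olfr448 was 11.23, 11.47, 10.89 and 10.65 in vehicle GFP- cells and 6.23, 5.85, 5.87 and 7.01 in GFP+ cells, at least 20.2-fold lower (-4.82, SE 0.27, adjusted p = 1.3e-06), and at least 27.6-fold lower with odorant (-5.61, SE 0.32, adjusted p = 7.1e-07). Olfr447 was 9.52, 9.08, 9.41 and 8.74 in vehicle GFP+ and 8.34, 7.70, 7.92 and 7.56 in GFP- cells, a 2.47-fold rise (1.31, SE 0.22, adjusted p = 0.0019). In odorant mice the rise of Olfr447 was 2.05-fold (adjusted p = 0.037), and that call was lost without odorant pool 1, 2 or 3. Neither receptor overlapped between fractions in either comparison, again with no share counted over all gene probesets. Olfr437 fell 1.93-fold with vehicle (adjusted p = 0.029) and 2.10-fold with odorant (adjusted p = 0.0072), calls that were lost without vehicle pool 1 or 2 and without odorant pool 1 or 3. Its vehicle call was also lost with array medians subtracted (-0.59, adjusted p = 0.075).

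The second MOR261 trio lies further along the same cluster and was called in neither comparison. Olfr435 differed by -0.19 with vehicle (95% interval -1.06 to 0.69) and by -0.83 with odorant (-1.80 to 0.13). For Olfr434 the differences were 0.033 (-0.63 to 0.70) and 0.35 (-0.27 to 0.97), and for Olfr47 -0.44 (-0.85 to -0.021) and -0.51 (-1.02 to -0.0085), with adjusted p = 0.14 and 0.22. The sign of the vehicle value changed for Olfr435 with array medians subtracted and for Olfr434 without vehicle pool 1. These intervals lie above those of the first trio, whose highest upper bound was -2.99. Olfr446, between Olfr447 and Olfr444 in the gene order, was 12.8 to 13.6 in vehicle GFP+ and 13.0 to 13.3 in vehicle GFP- cells, and its differences of 0.18 and 0.61 were not called (adjusted p = 0.56 and 0.10). With array medians subtracted both differences of Olfr446 were called (limma, adjusted p = 0.025 and 0.0098).

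In MOR257 the closest pair split. Olfr452 read 9.36, 8.71, 8.98 and 8.92 in vehicle GFP- cells and 4.19, 3.32, 3.76 and 4.21 in GFP+ cells, all of the latter below background, and was at least 5.06-fold lower (-5.12, SE 0.22, adjusted p = 2.1e-07). With odorant it was 7.93 to 8.87 against 3.61 to 3.83, at least 2.92-fold lower (-4.58, SE 0.21, adjusted p = 1.4e-07). Olfr453, which matches Olfr452 at 88% of the 50 bases, was 9.65, 8.71, 9.46 and 9.47 in vehicle GFP+ cells and 7.72, 8.32, 8.71 and 8.76 in GFP- cells. That is a 1.93-fold rise (0.95, SE 0.27, adjusted p = 0.035) with overlapping fractions. With odorant Olfr453 rose 2.68-fold (1.42, SE 0.37, adjusted p = 0.029), again with overlap, and each call was lost when any of 3 of the 4 pools was left out. Olfr457 fell 2.89-fold with vehicle (adjusted p = 0.027) and 3.49-fold with odorant (adjusted p = 0.0097), and lost the call in each without pool 3 or 4. Olfr458, Olfr456 and Olfr450 were called in neither.

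MOR262 of chromosome 4 was divided within itself, with 4 receptors lower in both comparisons, 1 higher in both, 2 called with vehicle only and 3 in neither. Olfr157 (mOR37C) was 9.62, 8.81, 8.86 and 8.65 in vehicle GFP- cells and 4.63, 4.61, 4.66 and 5.04 in GFP+ cells, at least 5.04-fold lower (-4.25, SE 0.22, adjusted p = 6.6e-07), and at least 4.43-fold lower with odorant (-4.10, SE 0.32, adjusted p = 6.2e-06). Olfr155 (mOR37A) was 11.7-fold lower with vehicle (-3.54, SE 0.70, adjusted p = 0.0054) and 14.5-fold lower with odorant (-3.86, SE 0.64, adjusted p = 0.0019). Its GFP+ values were the most variable of all 52 receptors: 10.62, 8.34, 8.92 and 6.33 in vehicle pools 1 to 4, against 12.36, 11.47, 12.17 and 12.38 in GFP- cells. Without vehicle pool 1 the difference was -4.15 and without vehicle pool 4 it was -2.71. The odorant value became -4.60 without odorant pool 1 and -3.25 without odorant pool 4. Olfr156 (mOR37B) was 2.41-fold lower with vehicle (adjusted p = 0.028) and 2.72-fold lower with odorant (adjusted p = 0.020), and lost the call without any of vehicle pools 2, 3 or 4 and without odorant pool 1 or 4. Olfr159 (mOR37E) was at background in every group. Olfr270 fell from 9.20 to 10.2 in vehicle GFP- cells to 5.12 to 6.30 in GFP+ cells, at least 9.02-fold (adjusted p = 6.4e-06), and at least 4.84-fold with odorant (adjusted p = 0.00066). Its odorant log2 difference of -3.55 became -2.92 without odorant pool 3.

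Olfr267 rose in the same family. It read 12.14, 10.15, 11.58 and 13.05 in the GFP+ cells of vehicle pools 1 to 4 and 9.39, 8.73, 9.20 and 9.89 in their GFP- cells, a 5.39-fold rise (2.43, SE 0.51, adjusted p = 0.0076). With odorant its GFP+ values were 11.93, 9.94, 12.24 and 12.55 and its GFP- values 10.21, 9.36, 9.80 and 10.27, a 3.38-fold rise (1.76, SE 0.48, adjusted p = 0.038) in which pool 2 overlapped the other fraction. The odorant call was lost without odorant pool 1, 3 or 4, and the vehicle call without vehicle pool 1. With the pools as pairs the adjusted p was 0.00099 and 0.0064. Olfr273, of the cluster before it, was 11.8 to 13.4 in vehicle GFP+ and 11.9 to 12.4 in GFP- cells, and its differences of 0.68 and 1.03 were not called (adjusted p = 0.15 and 0.072). In the paired fit that of the odorant mice was (adjusted p = 0.012). With array medians subtracted both differences of Olfr273 were called (limma, adjusted p = 0.016 and 0.011). Olfr272 differed by 0.74 (95% interval -0.52 to 2.00) and 1.06 (-0.20 to 2.31) and was not called.

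The 2 receptors of chromosome 3 differed from each other. Olfr266 (MOR122) was 9.48, 9.95, 9.02 and 9.76 in vehicle GFP- cells and 3.60, 4.51, 5.46 and 5.22 in GFP+ cells, at least 7.48-fold lower (-4.86, SE 0.37, adjusted p = 9.2e-06). With odorant it read 8.30 to 9.42 against 4.48 to 5.56, at least 4.09-fold lower (-3.69, SE 0.29, adjusted p = 6.8e-06). Olfr1402 (MOR217) was between 2.99 and 4.00 on every array, below background throughout.

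Rises in GFP+ cells were most numerous in the chromosome 4 cluster of 13 receptors from Olfr62 to Olfr1328, where 6 were higher and 0 lower with vehicle and 8 were higher and 1 lower with odorant. Among the 1028 other odorant receptor probesets 367 were higher and 258 lower with vehicle, and 356 and 247 with odorant. Over all gene probesets 7.76% were higher and 9.97% lower with vehicle, and 3.57% and 7.84% with odorant. Neither the cluster nor its families were tested against these shares. Of the MOR258 receptors there, 3 of 5 were higher in both comparisons. Olfr1339 was 9.51, 9.04, 9.04 and 9.41 in vehicle GFP+ and 6.37, 6.73, 7.72 and 6.85 in GFP- cells, 5.04-fold higher (2.33, SE 0.26, adjusted p = 0.00014), and 5.71-fold higher with odorant (2.51, SE 0.17, adjusted p = 2.3e-06). Its GFP- means lay only just above background, which 2 of 4 GFP- arrays exceeded with vehicle and 3 of 4 with odorant, so these folds are not firm. Olfr1340 was 8.17, 7.38, 8.26 and 8.39 against 5.28, 5.47, 5.92 and 6.46, with every GFP- value below background, and so at least 2.58-fold higher (adjusted p = 0.00031). In odorant mice it was 7.17, 7.60, 7.73 and 7.10 against 4.94, 4.99, 4.58 and 5.10, at least 1.69-fold higher (adjusted p = 5.6e-06). Olfr62 was higher by at least 1.57-fold with vehicle (adjusted p = 0.015) and 1.41-fold with odorant (adjusted p = 0.035). With the pools as pairs the odorant call of Olfr62 was lost (adjusted p = 0.076). Its log2 difference of 1.22 with vehicle became 0.79 without vehicle pool 4, and the call was lost without vehicle pool 1 and without odorant pool 1, 2 or 4. Olfr1342, of the same family, differed by -0.67 and -0.71 and was not called (adjusted p = 0.10 and 0.13).

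MOR259 followed in the same cluster, with 3 of 8 members higher with vehicle and 5 of 8 higher and 1 lower with odorant. Olfr1328 was 11.16, 11.01, 10.93 and 10.95 in vehicle GFP+ and 8.58, 8.61, 9.47 and 8.98 in GFP- cells, a 4.30-fold rise (2.10, SE 0.20, adjusted p = 3.8e-05). With odorant the rise of Olfr1328 was 5.19-fold (2.38, SE 0.20, adjusted p = 1.2e-05). Olfr1333 was 10.79, 9.40, 10.05 and 10.33 against 8.32, 7.23, 8.11 and 7.57, 5.04-fold higher with vehicle (adjusted p = 0.00043) and 4.28-fold with odorant (adjusted p = 0.0015). Olfr1330 rose 2.99-fold (adjusted p = 0.0077) and 2.31-fold (adjusted p = 0.028), and lost the vehicle call without pool 1 and the odorant call without pool 1, 3 or 4. Of the relatives of Olfr1328 printed above, Olfr1338, with 94% identical bases, gave smaller values. Olfr1338 differed by 0.50 and 0.44 and was not called (adjusted p = 0.13 and 0.29). With array medians subtracted both differences of Olfr1338 were called (limma, adjusted p = 0.0093 and 0.029). Olfr1329, also 94% identical to Olfr1328, differed by 0.63 with vehicle (adjusted p = 0.22) and rose by 1.44 with odorant (adjusted p = 0.015). Its GFP- means did not exceed background, so its folds are lower bounds, at least 1.08-fold with vehicle and 1.51-fold with odorant. Whether Olfr1329 changed less than Olfr1328 therefore cannot be told. The odorant call of Olfr1329 was lost without odorant pool 2 or 4. Olfr1337 was below background on all arrays.

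The largest rise was that of Olfr211, the MOR253 receptor at the start of the last chromosome 6 cluster. It read 14.11, 14.54, 14.98 and 15.90 in vehicle GFP+ cells and 9.69, 10.63, 10.41 and 9.97 in GFP- cells, a 26.2-fold rise (4.71, SE 0.35, adjusted p = 7.8e-06). With odorant it was 13.88, 14.61, 14.60 and 15.46 against 10.22, 10.87, 10.51 and 10.67, a 16.8-fold rise (4.07, SE 0.29, adjusted p = 3.4e-06). The fractions lay far apart in both, and pool 4 was the highest and pool 1 the lowest of the GFP+ arrays in each. Of the 4 MOR119 receptors that complete the cluster, only Olfr213 was called. It was lower in GFP+ cells, 12.79, 13.58, 12.69 and 12.25 against 14.27, 13.94, 14.16 and 14.19 with vehicle, a 2.48-fold fall (-1.31, SE 0.25, adjusted p = 0.0039), and it fell 2.44-fold with odorant (-1.28, SE 0.24, adjusted p = 0.0045). Olfr212, Olfr214 and Olfr215 were called in neither comparison.

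**Figure D2:**
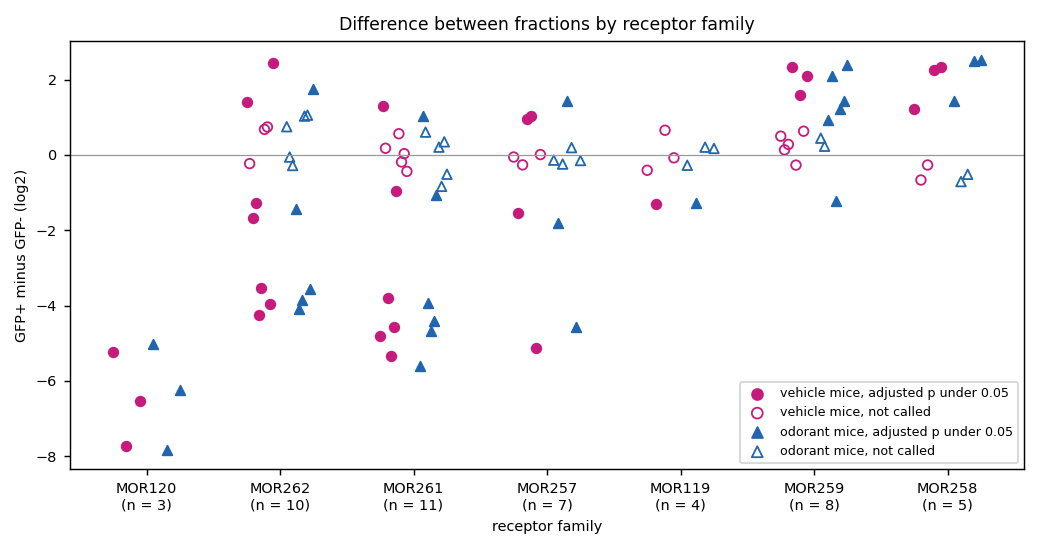
Log2 difference between GFP+ and GFP- cells for each receptor of the families with 3 or more members, in vehicle mice (magenta circles) and odorant mice (blue triangles), filled where the adjusted p was under 0.05. All points of MOR120 lie below -5, those of MOR258 include 3 filled points above 1 in each set of mice, and MOR261 and MOR262 spread over both signs.

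The directions of neighbours within a cluster are given as a description with no test. There were 42 pairs of receptors that stand next to each other in a cluster. With vehicle both receptors were called in the same direction in 9 pairs, in opposite directions in 2 and at least 1 was not called in 31. In odorant mice these counts were 10, 3 and 29. No such count was made for receptors that are not neighbours or for clusters on other chromosomes. Whether position went with direction was therefore not tested. The opposed neighbours were Olfr448 and Olfr447 in both, Olfr38 and Olfr452 with vehicle, and Olfr1331 with either neighbour, Olfr1333 and Olfr1330, with odorant. Among the 10 closest pairs, the largest gap between the vehicle differences of the partners was 6.07 (Olfr453 and Olfr452). In the other pairs the gap ran from 0.13 (Olfr1338 and Olfr1329) to 1.605 (Olfr1338 and Olfr1328). Gaps with Olfr1329, Olfr452 or Olfr444 involve a group at background, so their sizes are not firm. For comparison, the median identity over the 50 bases was 66% for the 89 pairs within a family and 32% for the 652 pairs between families.

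The vehicle and odorant comparisons used different mice and different arrays, so each is a repeat of the other's fraction difference apart from the treatment. Of the 52 receptors, 10 were higher in both, 16 were lower in both and 20 were called in neither. Calls shared by both comparisons were not counted over the other odorant receptors or over all gene probesets. These counts are therefore not shown to be particular to the 52. No receptor was called in opposite directions, and 50 of 52 had the same sign. The median gap between the 2 differences of a receptor was 0.27, and Pearson's r across the 52 receptors was 0.98, given as a description since receptors share arrays. In 6 receptors only 1 comparison gave a call. With vehicle only these were Olfr70 (1.41 against 0.75 with odorant), Olfr159 (-1.69 against -0.28) and Olfr38 (1.03 against 0.19). With odorant only they were Olfr1335 (0.28 with vehicle against 0.92), Olfr1331 (-0.27 against -1.22) and Olfr1329 (0.63 against 1.44). For Olfr159 both fractions were at background, as were both group means of Olfr38. The GFP- means of Olfr1329 and the vehicle GFP- mean of Olfr70 (6.49) did not exceed background either. The call of Olfr1335 was lost with the pools as pairs (adjusted p = 0.090) and without odorant pool 1, 2 or 4. Those of Olfr70 and Olfr38 were lost without vehicle pool 1, and that of Olfr70 also without vehicle pool 2 or 3. The test of these gaps is the interaction, given further on.

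**Figure D3:**
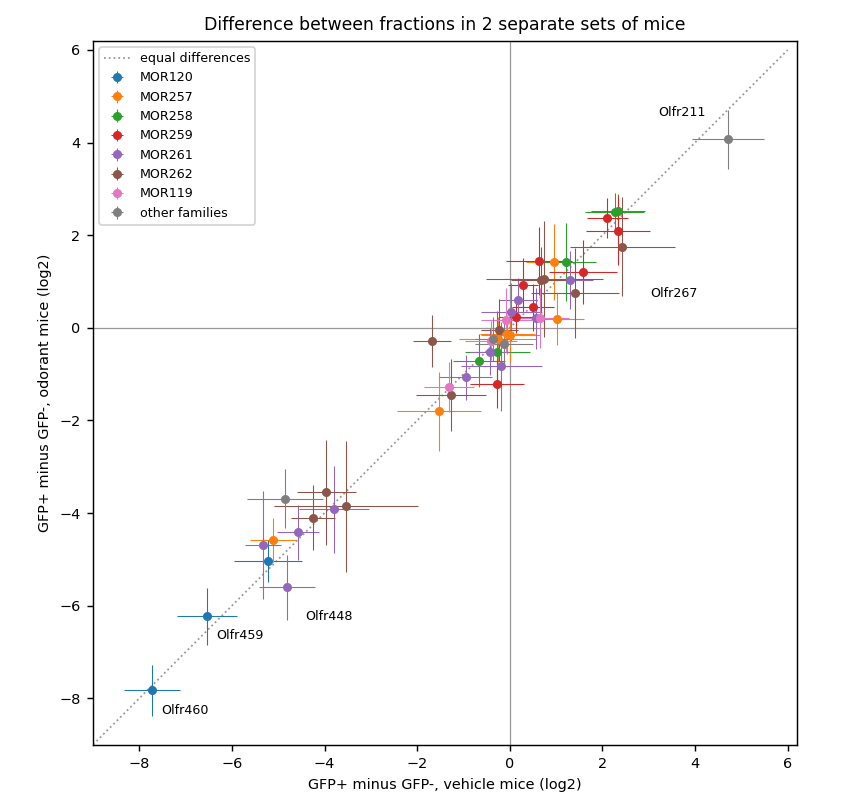
Log2 difference between GFP+ and GFP- cells in vehicle mice (horizontal axis) against odorant mice (vertical axis), 1 point per receptor with 95% intervals, coloured by family, with a dotted line of equal differences. Olfr460 lies lowest at -7.72 and -7.83 and Olfr211 highest at 4.71 and 4.07, and the points follow the dotted line.

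The spread between pools was, in the median receptor, wider in GFP+ than in GFP- cells. The median SD over 4 arrays was 0.50 in vehicle GFP+, 0.39 in vehicle GFP-, 0.51 in odorant GFP+ and 0.38 in odorant GFP- cells. Olfr155 had the highest SD in GFP+ cells, 1.77 with vehicle and 1.65 with odorant, against 0.43 and 0.38 in GFP- cells. Olfr272 and Olfr267 also had an SD over 1 in both GFP+ groups, 1.37 and 1.29 for Olfr272 and 1.22 and 1.18 for Olfr267. Some receptors repeated a pattern over pool numbers, and 2 examples were picked for it. Olfr272 read 11.62, 9.08, 10.41 and 12.16 in the GFP+ cells of vehicle pools 1 to 4 and 11.08, 8.95, 11.05 and 12.00 in those of odorant pools 1 to 4, so pool 2 was lowest and pool 4 highest in each. Olfr155 read 10.54, 8.84, 7.79 and 6.66 in odorant GFP+ cells, and pool 1 was highest and pool 4 lowest under both treatments. Across the 52 receptors, the deviations of GFP+ arrays from their group means correlated between vehicle and odorant pools of the same number with r = 0.51, 0.58, -0.089 and 0.60, as a description. Between different numbers r ran from -0.54 to 0.55, and 5 of 8 arrays correlated best with their own number. These are different mice, and no label says what a number marks. Eif2s3y, a Y-linked gene, read 2.63 to 3.41 on the 4 arrays of pools numbered 4 and 9.95 to 11.2 on the other 12, and its part in this pattern was not tested.

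**Figure D4:**
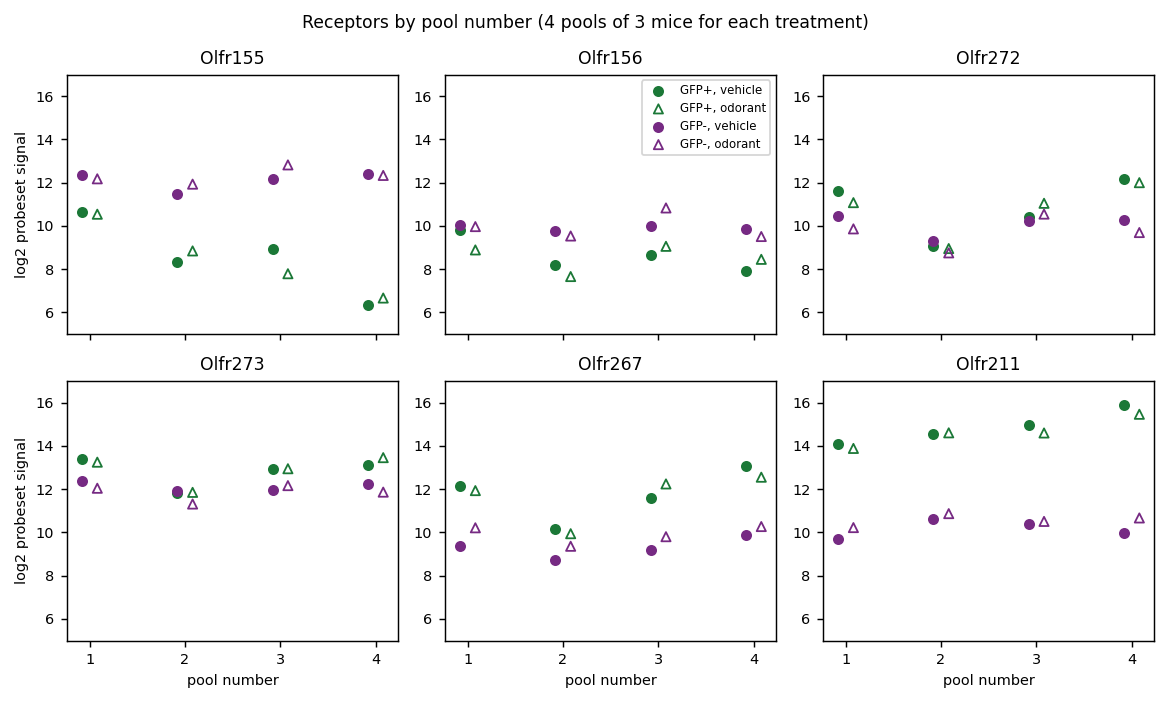
Log2 probeset signal of 6 receptors by pool number, with circles for vehicle, triangles for odorant, green for GFP+ and purple for GFP- cells, each point 1 array of a pool of 3 mice. In GFP+ cells the vehicle and odorant points of Olfr155, Olfr272, Olfr273, Olfr267 and Olfr211 lie close together at most pool numbers, for example 6.33 and 6.66 for Olfr155 in pools numbered 4.

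The next comparison asked whether the odorant changed a receptor within a fraction. In GFP+ cells no receptor was called, as was the case for 0% of all gene probesets in either direction. At an unadjusted p under 0.05 there were 3 of 52 receptors, 1 higher and 2 lower, where 3.82% of all gene probesets passed. These were Olfr159 (0.64 higher with odorant, 95% interval 0.19 to 1.09, both groups at background), Olfr1340 and Olfr1331, each with adjusted p = 0.999 (limma). Olfr1340 read 7.17, 7.60, 7.73 and 7.10 with odorant and 8.17, 7.38, 8.26 and 8.39 with vehicle, a difference of -0.65 (-1.17 to -0.13) with overlapping groups. Olfr1331 read 7.86, 8.86, 8.67 and 8.90 against 9.21, 9.95, 8.60 and 9.32, a difference of -0.70 (-1.35 to -0.038), also with overlap. The highest value was 0.67 for Olfr441 (-0.34 to 1.67), and Olfr446 differed by 0.35 (-0.13 to 0.84).

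The intervals show what these arrays could have missed. In GFP+ cells the upper bound lay below 1, a doubling, for 43 of 52 receptors and below 2 for 52 of 52. Among the 28 receptors above background on all 8 GFP+ arrays, the upper bound lay below 1 for 24 and the whole interval within -1 to 1 for 16. The median half-width was 0.66, and the widest was 2.02 for Olfr155. A receptor below background may have changed without a visible difference. Without the pools numbered 4 no receptor was called either, and the smallest adjusted p was 0.88.

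In GFP- cells no receptor was called, again with 0% of all gene probesets in each direction. An unadjusted p under 0.05 was reached by 7 of 52 receptors, 2 higher and 5 lower, against 6.84% of all gene probesets. Olfr1340 was lower by 0.88 (95% interval -1.43 to -0.33) and Olfr159 by 0.76 (-1.29 to -0.24), both at background in these cells. Olfr452 read 7.93, 7.96, 8.48 and 8.87 with odorant and 9.36, 8.71, 8.98 and 8.92 with vehicle, a difference of -0.68 (-1.20 to -0.16) with overlap. Olfr266 differed by -0.76 (-1.36 to -0.15), Olfr270 by -0.78 (-1.55 to -0.012), Olfr267 by 0.61 (0.016 to 1.21) and Olfr38 by 0.38 (0.037 to 0.72). All GFP- values of Olfr38 were below background. The smallest adjusted p of the 52 was 0.71 (limma). The upper bound was below 1 for 47 of 52, and the whole interval lay within -1 to 1 for 36. Of the 39 receptors above background on all 8 GFP- arrays, these counts were 36 and 28.

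**Figure D5:**
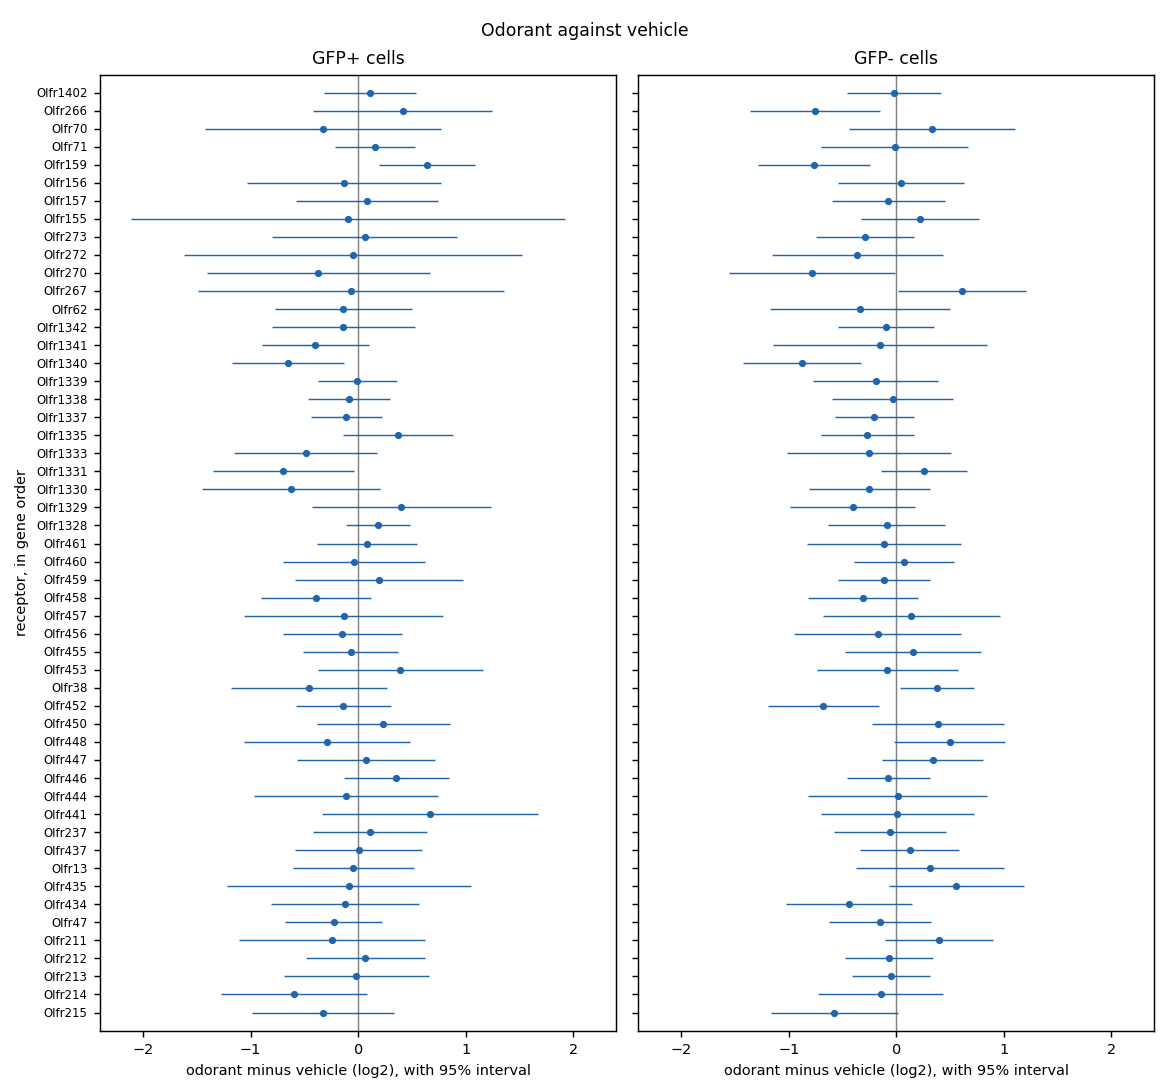
Log2 difference between odorant and vehicle for each of the 52 receptors in gene order, in GFP+ cells (left) and GFP- cells (right), with 95% intervals from 4 arrays per group. Points lie between -0.70 and 0.67 in GFP+ cells and between -0.88 and 0.61 in GFP- cells, and the interval of Olfr155 in GFP+ cells is the widest.

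The interaction (the effect of the odorant on GFP+ cells, less its effect on GFP- cells) tests whether the fraction difference depended on the treatment. No receptor was called, and neither was any other gene probeset (0% in each direction). At an unadjusted p under 0.05 there were 4 of 52 receptors, against 4.92% of all gene probesets. Olfr159 had the smallest p (1.40, SE 0.33, unadjusted p = 0.00048, adjusted p = 0.89), with all its values below background. Olfr1331 (-0.95, SE 0.37), Olfr266 (1.17, SE 0.51) and Olfr38 (-0.84, SE 0.39) each had an adjusted p of 0.96. Every GFP+ value of Olfr266 and every GFP- value of Olfr38 lay below background. For Olfr1331 the fraction difference of -1.22 with odorant and that of -0.27 with vehicle are thus not shown to differ. Intervals had a median half-width of 0.90, so a gap of 1 between treatments would lie within the error of many receptors.

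Genes that act with these receptors were examined from lists fixed for the pathway. Of 14 transduction genes, 5 were higher in GFP+ cells with vehicle and none lower, with a median difference of 0.18. They were the calcium-activated chloride channel Ano2 (0.57, SE 0.14), the phosphodiesterases Pde1c (0.65, SE 0.14) and Pde4a (0.65, SE 0.14), adenylyl cyclase Adcy3 (0.41, SE 0.12) and the exchanger Slc24a4 (0.61, SE 0.13). With odorant 2 of 14 were higher, Ano2 (0.48) and Pde1c (0.69). Of 15 genes for receptor choice and export to the membrane, on 16 probesets, the transcription factors Ebf1 (0.44) and Emx2 (0.48) were higher and Lbr, an inner nuclear membrane protein, was lower with vehicle (-1.08). With odorant Lbr alone was called (-0.95). None of these genes was called for the odorant in either fraction.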

How the data were processed

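RNA of FACS-sorted cells from pools of 3 mice was hybridized to 16 Clariom S arrays. The deposited values are log2 probeset signals that the authors made with Affymetrix Expression Console, per the submitters' processing notes. No source used here names its version, background correction or normalization, or the build of the array annotation. The values were used as deposited. Of 28846 probesets 6640 controls were left out. All 52 receptors matched the RefSeq table by gene ID. Olfr458 carried several family names there, and the last was used. No column was without a sample (0 of 16).

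In R 4.3.3, limma 3.58.1 (lmFit and eBayes) fitted each comparison. Tests were two-sided and p-values over the 22206 gene probesets were adjusted after Benjamini and Hochberg, with a threshold of 0.05. Comparisons of 2 groups used their 8 arrays and the interaction all 16. The fits were tested on simulated data. A group with no array above background, or whose mean did not exceed its mean background level, gives a bounded fold, computed with background in place of lower values. The number of arrays limits the precision. Errors are SE of the fit or SD over 4 arrays. Python 3.11.15 and matplotlib 3.10.9 made the figures.

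With 24 mice and 3 per pool there were 8 pools, so within a treatment the arrays of both fractions that bear the same number are pairs from the same animals. Deviations from group means, over all gene probesets, correlated with r = 0.11 to 0.16 (vehicle) and 0.014 to 0.36 (odorant) within these pairs. Between treatments numbers mark different mice, with r = -0.034 to 0.25 in GFP+ and -0.10 to 0.31 in GFP- cells, and were not taken as pairs in the reported fits. Alternatives were the replicate number as a block (the pool, except in the odorant comparisons within a fraction, where it joins different mice), quantile normalization, array medians subtracted, a filter on dim probesets, a trended robust fit, the highest background probeset as the background level, and each pool left out. Leaving out the pools numbered 4 of both treatments was added after seeing the data.

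The receptors, lists, tests and alternatives were chosen with earlier results of these data known. Named receptors were, for each fraction comparison, among those past the threshold, the 8 that rose and the 8 that fell most with every GFP+ array on the stated side. To them were added the 3 smallest p of each odorant comparison and of the interaction, the 4 highest mean signals (Olfr213, Olfr446, Olfr211 and Olfr273), both receptors of chromosome 3, and S100a5, Omp and Kirrel2. Other receptors and Eif2s3y were named after their values were seen. A part of the rule on protein identity was not used.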

Additional observations from a re-analysis of the deposited data

Results flagged for a closer look

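Of 208 sets of 4 arrays (52 receptors in 4 groups), 11 (5.29%) held an array whose gap to the nearest of the other 3, divided by the range, exceeded Dixon's 95% critical value. Chance flags about 1 in 20 such sets, and 6 of the 11 arrays came from pools numbered 4. In vehicle GFP+ cells these were Olfr159 in pool 1 at 4.00 (others 3.79 to 3.80), Olfr157 in pool 4 at 5.04 (others 4.61 to 4.66) and Olfr212 in pool 4 at 6.19 (others 7.16 to 7.34). In vehicle GFP- cells they were Olfr434 in pool 4 at 8.91 (others 8.23 to 8.27) and Olfr212 in pool 3 at 7.74 (others 7.25 to 7.31). In odorant GFP+ cells Olfr1342 in pool 4 read 7.32 (others 8.32 to 8.47), Olfr456 in pool 4 read 4.89 (others 4.56 to 4.61), Olfr455 in pool 1 read 10.30 (others 10.89 to 10.98) and Olfr435 in pool 2 read 9.54 (others 7.34 to 7.46). In odorant GFP- cells Olfr62 in pool 3 read 6.88 (others 5.30 to 5.51) and Olfr448 in pool 4 read 10.99 (others 11.69 to 11.79).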

How the results depend on the processing

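The numbers of receptors called higher and lower between fractions stayed within 1.5 times the reported ones under quantile normalization, the filter on dim probesets, the trended robust fit and the replicate block. Array medians subtracted gave 20 higher in vehicle mice. Leaving out a pool gave 6 to 12 higher and 15 to 16 lower with vehicle (6 without vehicle pool 1), and 6 to 10 higher and 15 to 18 lower with odorant (6 without odorant pool 1 or 4). The pools as a replicate block gave 12 higher and 17 lower with vehicle and 11 and 17 with odorant, where Olfr62 and Olfr1335 were lost and Olfr273 was gained, and changed no other call of a receptor. In the odorant comparisons within a fraction the block joined different mice by number. It narrowed the median half-width of the 95% intervals from 0.66 to 0.50 in GFP+ and from 0.56 to 0.46 in GFP- cells, and over all gene probesets 4 of 8 and 5 of 8 arrays correlated best with their own number. Under every alternative run, 0 receptors were called for the odorant or the interaction. Of the 16 receptors named per comparison, which had the largest rises and falls, 13 kept the call throughout. Of all 29 called per comparison, 22 kept the call without vehicle pool 1, and 21 without odorant pool 1 or 4.

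With array medians subtracted, 8 of 52 differences changed sign with vehicle, among them Olfr1331 (0.094) and Olfr435 (0.18), and 7 with odorant, among them Olfr159 (0.034), of which 0 had been called. Olfr437 lost its vehicle call under this scaling. Olfr273, Olfr1338, Olfr446 and Olfr1337 (at background) gained a call as higher in both comparisons. Olfr1335, Olfr1329, Olfr13 and Olfr214 gained one with vehicle. Leaving out a pool, Olfr434 ranged from -0.26 to 0.23 with vehicle and Olfr38 from -0.10 to 0.45 with odorant. Subtracting array medians shifts every difference of a comparison by the same amount. The largest difference that changed sign under it was 0.27 in size with vehicle and 0.28 with odorant. The causes of the other changes were not tested, and leaving out a pool also leaves fewer arrays. Above the highest background probeset on all 16 arrays were 20 receptors in place of 26. Signal near background limits 26 of the 52, and 4 arrays a group limit all.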
